A study of Mus musculus with 10 samples.

Results

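The immediate early and growth arrest genes described here are Egr1, Ier2, Klf4, Klf6, Klf10, Btg2, Dusp1, Gadd45a, Gadd45b and Gadd45g, 10 of the 21631 protein-coding genes on the autosomes and X in the RefSeq table. They were chosen by name. Every deposited peak inside one of these genes or within 10 kb of it was collected, which gave 87 peaks in 14 regions. The assay was ATAC-seq, which maps open chromatin by where Tn5 inserts adapters, on frozen liver tumours of FVB mice. All tumours carried LAP-tta and TRE-MYC, so that a MYC transgene came on in liver cells once doxycycline was taken away, and tissue was collected at death. Homo tumours (n = 3, about 100 days old) had both Arid1a alleles floxed together with Alb-cre. Het tumours (n = 3, about 70 days) had 1 floxed allele together with Alb-cre. WT tumours (n = 4, about 55 days) also had both alleles floxed but no Cre. Arid1a is part of the SWI/SNF complex, which moves nucleosomes. The albumin promoter drives Cre in hepatocytes and their precursors, so other cells of the tumour keep Arid1a. Age, the presence of Cre and Arid1a genotype change together between WT and the other groups, and their effects cannot be told apart. Age and genotype also change together between Homo and Het, and there too they cannot be told apart. The labels number replicates but do not tie each to its own mouse, and p-values here cover only library-to-library spread, which may be technical.

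Immediate early genes are switched on within minutes by growth factors, stress or injury, without new protein synthesis. Their promoters are known for being open and loaded with paused polymerase before the stimulus, and serum response factor and CREB are 2 of the known inducers. In the liver they mark the first hours after partial hepatectomy. Several of them feed back on growth. Egr1, Klf4, Klf6 and Klf10 are zinc finger transcription factors, Btg2 belongs to the BTG/TOB family that slows proliferation, and Dusp1 is a phosphatase that switches off MAP kinases. The Gadd45 proteins bind PCNA, p21 and the MAP kinase kinase kinase Map3k4 and act in growth arrest after DNA damage.

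The RefSeq promoter table (GRCm38.p6, whose primary chromosomes are those of mm10) held 7 of the 10 genes, namely Klf4, Klf6, Btg2, Dusp1, Gadd45a, Gadd45b and Gadd45g. The 250 bases before the gene start are shown for the 3 of these genes with a peak in the most libraries (Btg2, Dusp1, Gadd45a) and the 2 with a peak in the fewest (Klf4, Gadd45g). Capitals mark the cAMP response element TGACGTCA, the site bound by CREB, and the E-box CACGTG, the site bound by MYC with MAX. All run 5′ to 3′ in the direction of the gene. They lie at chr1:134079156-134079405 (minus strand), chr17:26508473-26508722 (minus), chr6:67037408-67037657 (minus), chr4:55532476-55532725 (minus) and chr13:51846425-51846674 (plus).
Btg2: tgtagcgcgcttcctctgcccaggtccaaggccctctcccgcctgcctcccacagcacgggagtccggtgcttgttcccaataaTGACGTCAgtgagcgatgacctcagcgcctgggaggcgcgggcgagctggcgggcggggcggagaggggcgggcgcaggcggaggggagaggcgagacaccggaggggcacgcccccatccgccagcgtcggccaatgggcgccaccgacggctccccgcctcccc
Dusp1: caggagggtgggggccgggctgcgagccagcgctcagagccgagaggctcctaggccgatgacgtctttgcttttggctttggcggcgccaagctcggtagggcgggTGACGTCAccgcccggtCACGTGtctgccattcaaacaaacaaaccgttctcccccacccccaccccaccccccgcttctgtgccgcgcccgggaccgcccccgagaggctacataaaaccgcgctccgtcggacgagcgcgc
Gadd45a: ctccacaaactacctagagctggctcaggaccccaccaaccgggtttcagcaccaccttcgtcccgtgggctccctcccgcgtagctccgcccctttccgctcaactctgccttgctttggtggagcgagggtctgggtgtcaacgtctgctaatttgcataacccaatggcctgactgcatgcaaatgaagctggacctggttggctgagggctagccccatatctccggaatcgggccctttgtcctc
Klf4: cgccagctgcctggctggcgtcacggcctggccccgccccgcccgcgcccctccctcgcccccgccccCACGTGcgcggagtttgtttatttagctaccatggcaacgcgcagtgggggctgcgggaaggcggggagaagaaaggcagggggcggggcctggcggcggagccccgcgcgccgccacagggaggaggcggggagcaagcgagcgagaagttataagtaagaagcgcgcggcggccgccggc
Gadd45g: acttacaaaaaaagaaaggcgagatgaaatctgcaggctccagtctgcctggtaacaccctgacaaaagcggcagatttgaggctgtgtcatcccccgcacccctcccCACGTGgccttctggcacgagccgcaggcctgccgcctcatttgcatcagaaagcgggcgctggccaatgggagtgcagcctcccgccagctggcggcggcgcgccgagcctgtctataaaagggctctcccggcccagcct

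Motifs were searched on both strands in these 250 bases and in the same stretch of 20886 RefSeq promoters. TGACGTCA was found in 2 of the 7 promoters, Btg2 and Dusp1, and in 1.95% of all promoters. It lay at -166 to -159 from the gene start in Btg2 and at -143 to -136 in Dusp1. The shorter site TGACG, which is part of TGACGTCA, was found in 3 of 7 (Klf4, Btg2 and Dusp1) and in 20.4% of all promoters. The E-box CACGTG was found in 5 of 7 (Klf4, Klf6, Dusp1, Gadd45b and Gadd45g) and in 6.72% of all promoters. The GC box GGGCGG was found in 6 of 7, all but Gadd45g, and in 43.3% of all promoters, and the CCAAT box CCAAT in 5 of 7 and 35.5%. TATAAA was found in Gadd45b and Gadd45g and in 11.6% of all promoters. The CArG box of serum response factor and the AP-1 site TGANTCA were found in 0 of the 7, and in 1.41% and 6.16% of all promoters. Egr1, Ier2 and Klf10 were not searched, nor was sequence beyond the 250 bases. These matches describe 250 letters and are not evidence of binding. CpG counts ranged from 11 in Gadd45a to 32 in Klf4, against a median of 10 over all promoters.

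The lists held 1748 to 9587 peaks in Homo, 2583 to 5796 in Het and 6731 to 9526 in WT. Depth was read from the lists as the smallest background, in tags per 200 bp, that recurred among the peaks. It was 0.464 to 1.61 in Homo, 0.655 to 0.738 in Het and 0.985 to 1.74 in WT. Homo 2 had the shortest list and the lowest depth, Het 3 the next shortest list, and Homo 3 had more peaks than any WT library. Of 12 hepatocyte markers, 0 to 8 had a peak within 10 kb in Homo, 1 to 2 in Het and 2 to 9 in WT. Cebpa had one in 9 of 10 libraries and Alb in 2, while Foxa2, Ahsg and Serpina1a had none. Of 34 endothelial, macrophage, lymphocyte, stellate and cholangiocyte markers, 28 had no peak in any library. The exceptions were Vwf in 1 library, Spi1 in 1, Cd4 in 1, Epcam in 2, Cd79a in 8 and Cd68 in 10. Of 6 erythroid markers, Klf1 had a peak in 10 libraries and the other 5 in none. A peak within 10 kb can lie at a neighbouring gene. In bulk tissue, fewer open cells and less open DNA per cell cannot be told apart.

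All 10 genes had a peak within 10 kb in at least 1 library, as did 55.5% of all protein-coding genes. Btg2 alone had one in all 10 libraries, a pattern held by 4.11% of all genes. The genes with a peak numbered 7, 2 and 10 in Homo 1 to 3, 6, 6 and 3 in Het 1 to 3, and 8, 10, 10 and 9 in WT 1 to 4. Homo 3 lay with the WT libraries, and Homo 2 and Het 3 were the lowest. The means were 6.33 ± 4.04 in Homo (SD, n = 3), 5 ± 1.73 in Het (n = 3) and 9.25 ± 0.957 in WT (n = 4). Every Het library had fewer of the genes than every WT library, while Homo and WT overlapped. Both also held over all protein-coding genes, of which 15.5% to 34.1% had a peak in Het and 38.2% to 48.1% in WT. The difference of means was -2.92 genes for Homo minus WT, -4.25 for Het minus WT and 1.33 for Homo minus Het. Without Homo 2 the Homo minus WT difference was -0.75, and without Homo 3 it was -4.75. Homo minus Het became 3.5 without Homo 2 and -0.5 without Homo 3. No p is given for these counts, because the genes were chosen with earlier results of these data known.

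The same libraries differed over all genes. The share of all protein-coding genes with a peak within 10 kb was 22.7%, 10.6% and 49.2% in Homo 1 to 3, 34.1%, 28.3% and 15.5% in Het 1 to 3, and 48.1%, 44.7%, 38.2% and 45.3% in WT 1 to 4. The libraries that were low for the 10 genes, Homo 2 and Het 3, were also the lowest over all genes. In each of the 10 deposited lists the share of the 10 genes was above that of all genes, from 20% against 10.6% in Homo 2 to 100% against 38.2% in WT 3. This did not hold with every setting. With each list held to its 1748 strongest peaks, the share was 10% against 10.9% in Het 1, 10% against 11.03% in Het 2 and 10% against 11.003% in WT 2, and with a −log10 p of at least 10 it was 0% against 3.66% in Homo 2. When all lists were thinned to the depth of Homo 2, the 10 genes with a peak numbered 6, 2 and 5 in Homo, 5, 6 and 2 in Het and 5, 6, 8 and 5 in WT, and every pair of groups overlapped. The part of depth and list length in the group differences was not tested further.

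**Figure D1:**
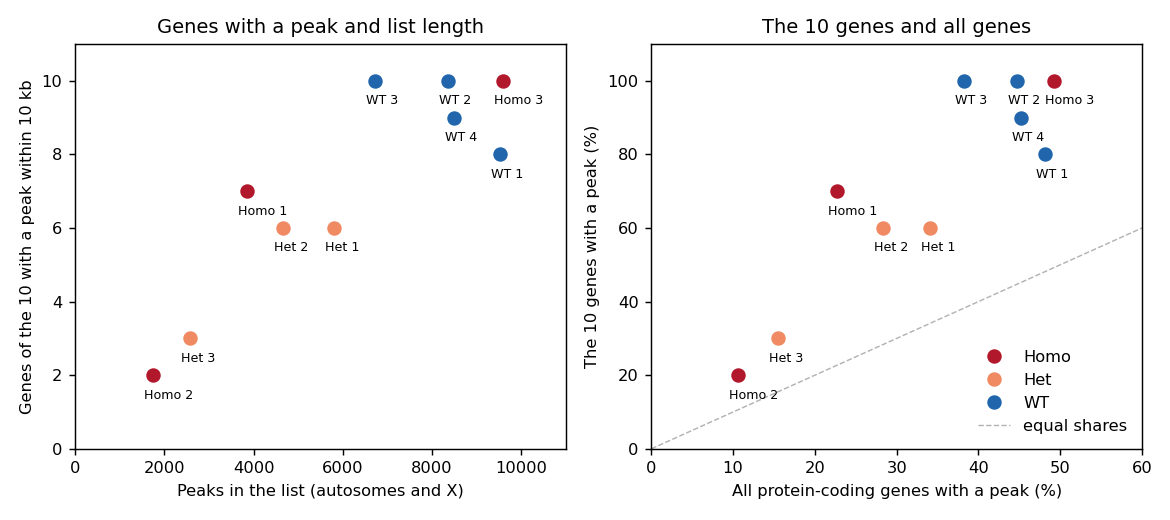
Left, the number of the 10 genes with a peak within 10 kb (vertical axis) against the number of peaks in the list (horizontal axis), 1 point per library. Right, the share of the 10 genes with a peak against the share of all protein-coding genes with one, both in percent, with a dashed line of equal shares. The libraries with the fewest peaks, Homo 2 (1748) and Het 3 (2583), had 2 and 3 of the genes, and all 10 points lie above the dashed line.

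In 2 of 10 genes, Btg2 and Dusp1, a peak was called in every Homo library, where 7.32% of all genes had that pattern. Likewise 2 of 10, Btg2 and Gadd45a, had one in every Het library (11.2% of all genes). In WT 8 of 10 had one in every library (33.2% of all genes), with Ier2 and Gadd45g as the exceptions. No gene of the 10 had a peak in every library of one group and in none of another. Over all genes with a peak in the libraries compared, 0.00839% were called in every Homo and no WT library and 0.227% in every WT and no Homo library. For Het against WT the shares were 0.00859% (every Het, no WT) and 4.74% (every WT, no Het). For Homo against Het they were 0.42% (every Homo, no Het) and 0.0447% (every Het, no Homo). A count of 0 among 10 genes is near these shares.

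Each region was also tested by Fisher's exact test on the libraries with and without a peak, two-sided, with Benjamini-Hochberg adjustment over all regions. Homo against WT gave 0 of 12117 regions with an adjusted p under 0.05 and 37 (0.305%) with an unadjusted p under 0.05. Het against WT gave 0 of 11408 and 499 (4.37%), and Homo against Het gave 0 of 10435 and 0. None of the regions tested at the 10 genes (14 for Homo against WT, 14 for Het against WT and 11 for Homo against Het) had an unadjusted p under 0.05. The smallest exact p among them was 0.143, at Klf4 and the inner Klf10 region for Homo against WT (adjusted p = 0.743) and at Klf4, Klf6, Gadd45b and the outer Ier2 region for Het against WT (adjusted p = 0.656). With 3 against 4 libraries the smallest p is 0.0286, and with 3 against 3 it is 0.1, so Homo against Het could give no p under 0.05. With 3 against 4, an adjusted p under 0.05 would need most of the regions to reach the smallest p. The 0 calls therefore cannot show that no region differs.

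**Figure D2:**
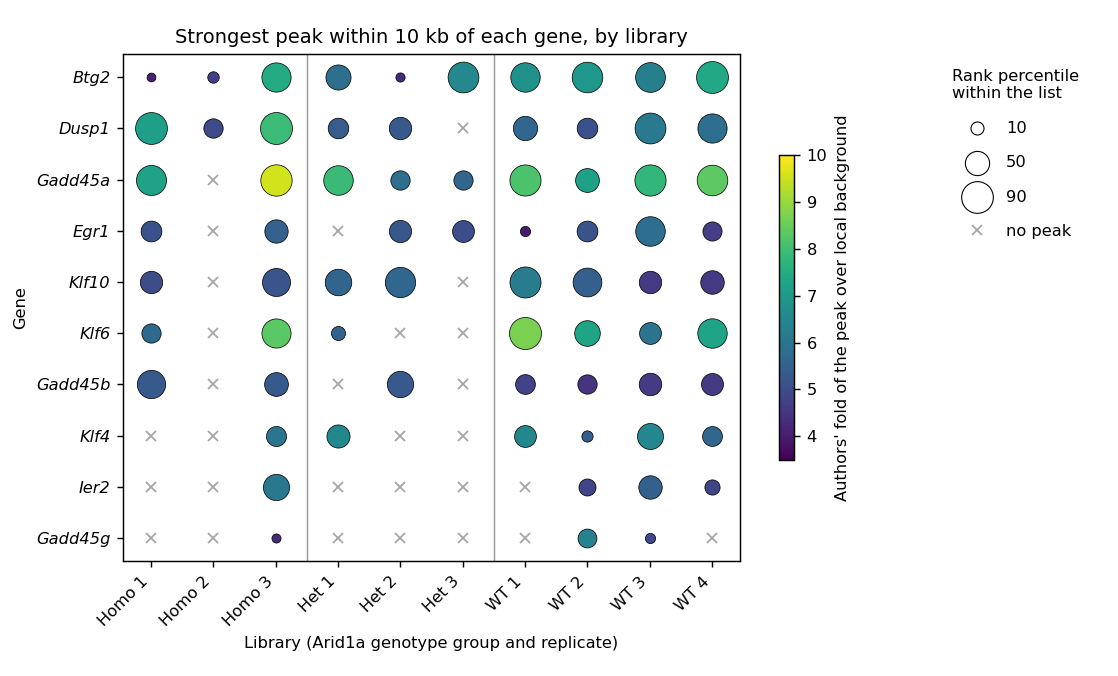
The strongest peak within 10 kb of each gene (rows) in each library (columns, Homo, Het and WT). Circle area grows with the peak's rank percentile within its list, colour gives the authors' fold over local background, and a cross marks a library with no peak. Btg2 has a circle in every column, Homo 3 has one in every row, and Homo 2 has one only for Btg2 and Dusp1.

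Btg2 (chromosome 1, 134074865 to 134079155), an antiproliferative gene induced by p53 and growth factors, had 1 region, at 134078734 to 134079506, across its start. The authors' fold of the strongest peak was 4.09, 4.74 and 7.48 in Homo 1 to 3, 5.85, 4.29 and 6.56 in Het 1 to 3, and 6.76, 6.98, 6.28 and 7.41 in WT 1 to 4. The rank percentile of its −log10 p within the list was 1.204, 6.35 and 75.6 in Homo, 54.1, 1.89 and 84.5 in Het, and 76.7, 83.3, 78.5 and 91.1 in WT. Homo 1, Homo 2 and Het 2 held it among their weakest peaks, while the 4 WT libraries all held it at percentiles of 76.7 or more. Percentiles in lists of different lengths are not a measure of change. Recovered tags at the summit, divided by the library background, were 13.1, 21.5 and 21.1 in Homo, 27.3, 16.8 and 27.1 in Het and 18.3, 25.6, 24.4 and 24.95 in WT. On this depth-scaled measure the 3 groups overlapped. The summit of the Homo 1 peak lay 285 bp inside the gene and its 272 bp covered none of the 250 bases printed above. The other 9 libraries covered at least 114 of those bases, and 6 of them (Homo 3, Het 1, Het 2 and WT 1 to 3) covered all 250, the TGACGTCA included. The peaks of Het 3 and WT 4 covered the TGACGTCA too.

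Dusp1 (chromosome 17, 26505591 to 26508472), the MAP kinase phosphatase, had 1 region at 26507993 to 26509040, again across its start, in 9 of 10 libraries. The Homo 1 peak lay inside the gene and covered none of the 250 bases printed above. The other 8 libraries with a peak covered at least 33 of them, and 4 (Homo 3, WT 1, WT 3 and WT 4) covered all. The TGACGTCA lay inside a peak in Homo 3 and WT 1 to 4. Its strongest peak had a fold of 7.14, 4.97 and 7.93 in Homo 1 to 3, of 5.39 and 5.29 in Het 1 and Het 2, with none in Het 3, and of 5.62, 5.11, 6.14 and 5.82 in WT 1 to 4. The rank percentile was 91.0, 29.7 and 91.7 in Homo, 34.2 and 41.8 in Het and 50.1, 34.4, 85.0 and 75.5 in WT. Here the highest values were in Homo 1 and Homo 3, and the groups overlapped. Summit tags over library background were 29.6, 30.1 and 28.0 in Homo, 24.4 and 26.0 in Het and 15.5, 19.4, 28.4 and 23.5 in WT. Only called peaks have such a height, and the height needed for a call was greatest in Homo 2, the library of lowest depth. The order of the groups in these heights is therefore not a measure of change. The peaks were wide in WT 1, WT 3 and WT 4, at 835, 899 and 1042 bp, and WT 2 had 2 separate peaks of 393 and 429 bp. In Homo they were 355, 486 and 686 bp wide, and in Het 205 and 411 bp.

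Gadd45a (chromosome 6, 67035096 to 67037407) is a p53 target of the Gadd45 family. Its region at 67036887 to 67037648 also overlaps the noncoding gene E230016M11Rik, so the peak cannot be assigned to one of them. The fold was 7.25 and 9.56 in Homo 1 and Homo 3, with no peak in Homo 2, 7.89, 5.86 and 5.61 in Het 1 to 3, and 8.17, 7.20, 7.77 and 8.39 in WT 1 to 4. Homo 3 had the highest fold of any peak at the 10 genes, and the groups overlapped. Summits fell within 164 bp of each other over the 9 libraries. Gadd45a also had the highest median rank percentile of the 10 genes, at 80.3, followed by Btg2 at 75.6.

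Gadd45b (chromosome 10, 80930091 to 80932204), known as a target of NF-kB and TGF-beta signalling, had a region at 80929755 to 80930406, across its start, in 2 of 3 Homo, 1 of 3 Het and 4 of 4 WT libraries. The Homo 1 peak lay inside the gene. The fold was 5.31 and 5.32 in Homo 1 and Homo 3, 5.29 in Het 2, and 4.77, 4.47, 4.63 and 4.64 in WT 1 to 4. Summit tags over library background were 25.2 and 19.3 in Homo, 32.1 in Het, and 14.9, 22.1, 23.4 and 19.3 in WT. The folds called in Homo and Het were above those in WT, but folds of separate lists are not a measure of change. On the depth-scaled measure Homo and WT overlapped, and the only Het library with a call lay above WT. Libraries without a call have no value. A second region lay 7519 bp beyond the gene, at 80939723 to 80939988, in WT 1 and WT 2 only, with rank percentiles of 15.7 and 11.8. The nearest other gene to it was Gng7, 8636 bp away. Gadd45g (chromosome 13, 51846675 to 51848475) had the fewest calls, in Homo 3, no Het library, and WT 2 and WT 3. The fold was 4.26 in Homo 3 and 6.36 and 4.91 in WT 2 and WT 3, with 14 tags at the summit in Homo 3 and 14 and 10 in the WT libraries. These 3 peaks were 200 to 208 bp wide and ranked low, at percentiles of 1.72 in Homo 3 and 27.9 and 3.88 in WT.

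Egr1 (chromosome 18, 34861207 to 34864956), the transcription factor that heads many immediate early responses, had peaks on the side of its lower coordinate in 2 of 3 Homo, 2 of 3 Het and 4 of 4 WT libraries. The fold of the strongest was 5.12 and 5.49 in Homo 1 and Homo 3, 5.26 and 5 in Het 2 and Het 3, and 4.02, 5.16, 5.82 and 4.67 in WT 1 to 4. Relative to the lower gene coordinate, the summit of the strongest peak lay at -69 and -102 bp in Homo, -194 and -129 bp in Het, and -686, -665, -558 and -669 bp in WT. In the 4 WT libraries the strongest summit was thus farther from the gene than in any Homo or Het library with a call. Het 2 had a second peak with its summit at -665 bp and WT 2 one at -123 bp, so both positions were called in Het and WT. Single peaks of 827 bp in Homo 3 and 761 bp in WT 4 spanned both. This pattern was noticed after the values were seen and was not tested.

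Ier2 (chromosome 8, 84661331 to 84662852), an immediate early gene of the nucleus, was called in 1 of 3 Homo, 0 of 3 Het and 3 of 4 WT libraries. The region shared by these 4 libraries was outside the gene, 1114 bp beyond its higher coordinate, at 84663966 to 84664294. Its fold was 6.11 in Homo 3 and 4.82, 5.46 and 4.80 in WT 2 to 4, and the 4 summits lay within 77 bp. The nearest other gene was Nacc1, 6183 bp away. A second region, across the higher coordinate, was called in WT 3 only. Ier2 was the only one of the 10 genes whose calls were lost in part with a narrower window: within 1 kb it had a peak in WT 3 only.

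Klf10, known as TGF-beta inducible early gene, was called in more libraries than Klf4 and Klf6, in 2 of 3 Homo, 2 of 3 Het and 4 of 4 WT libraries. It spans chromosome 15, 38291464 to 38300711. An inner region at 38298890 to 38299751 was called in 1 Homo, 2 Het and 4 WT libraries. An outer one at 38300612 to 38301278, across its higher coordinate, was called in 2 Homo, 2 Het and 4 WT libraries. Homo 1 had the outer peak without the inner one. Both regions overlap the noncoding gene Gm35248. The outer peak had a fold of 4.97 and 5 in Homo 1 and Homo 3, 5.58 and 4.74 in Het 1 and Het 2, and 6.21, 5.45, 4.51 and 3.77 in WT 1 to 4. The groups overlapped.

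Klf6 (chromosome 13, 5861489 to 5870393), a growth-restraining factor of liver and stellate cells, had 1 region at 5860808 to 5861449, which ended 40 bp before the gene start. It was called in 2 of 3 Homo, 1 of 3 Het and 4 of 4 WT libraries. The fold was 5.70 and 8.33 in Homo 1 and Homo 3, 5.56 in Het 1, and 8.70, 7.31, 5.97 and 7.30 in WT 1 to 4. In 6 of the 7 libraries the summit lay between -238 and -172 bp from the start, and in Homo 1 it lay at -463 bp. Klf4 (chromosome 4, 55527137 to 55532475), a factor of cell cycle arrest and pluripotency, was called in 1 of 3 Homo, 1 of 3 Het and 4 of 4 WT libraries. Its region at 55532221 to 55532821 also overlaps the noncoding gene Gm12506. The fold was 6.03 in Homo 3, 6.52 in Het 1, and 6.54, 5.41, 6.47 and 5.65 in WT 1 to 4. Without Homo 3, Klf4 was called in every WT and no Homo library, as were 2676 genes of the whole table, against 27 with Homo 3.

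**Figure D3:**
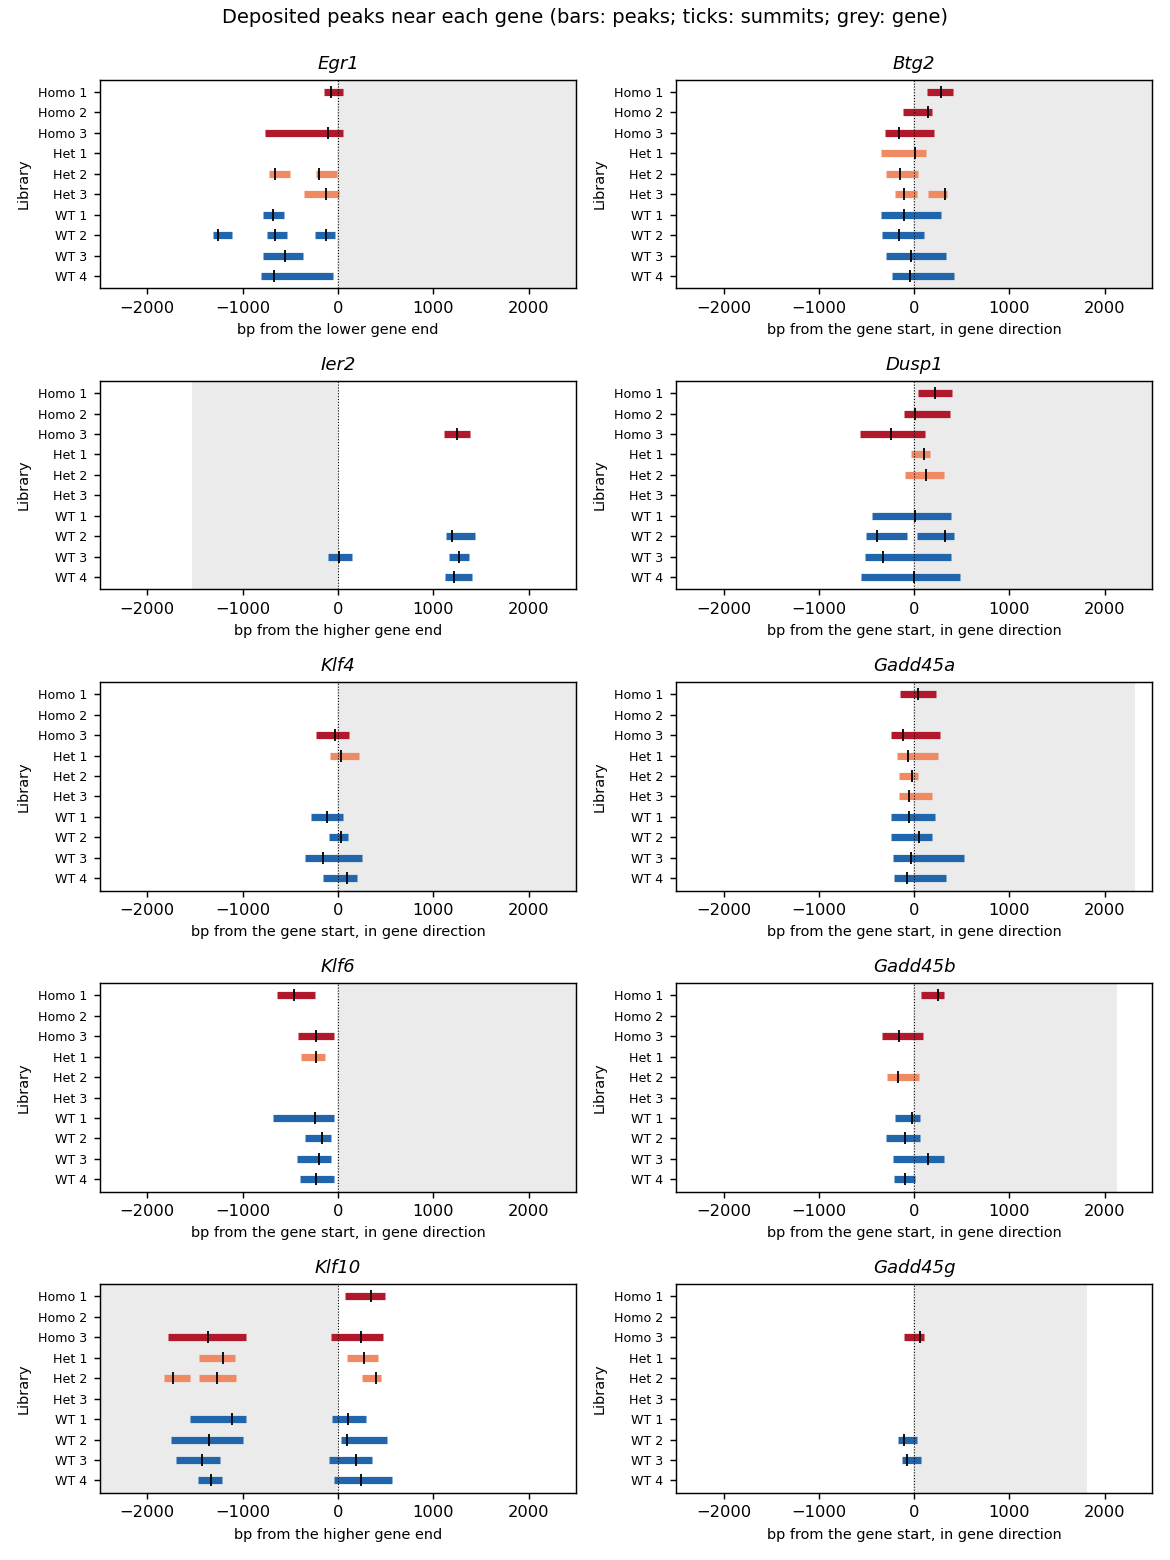
Deposited peaks near each gene, 1 row per library with Homo at the top, Het below it and WT at the bottom. Bars are peaks, ticks their summits and grey the gene. The horizontal axis gives bp from the gene start in the direction of the gene, or, for Egr1, Ier2 and Klf10, bp from the named gene end along the chromosome. The second Gadd45b region lies beyond the axis. Most peaks of Btg2, Dusp1, Klf4 and the Gadd45 genes lie across the start, those of Klf6 before it, and those of Ier2 mostly beyond the gene.

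The summit was within 1000 bp of a gene end in 72 of the 87 peaks (82.8%). Widths ranged from 200 to 1042 bp with a median of 359 bp. The local background under the peaks differed between the genes. Its median per library over all peaks at the 10 genes was 2.54 to 3.60 times the library background in Homo, 2.995 to 3.73 times in Het and 2.25 to 3.04 times in WT, against 1.505 to 1.77, 1.67 to 1.71 and 1.46 to 1.66 times over all peaks of the same lists. By gene, the median was 4.52 times at Klf10, 3.59 at Gadd45b, 3.28 at Dusp1, 3.06 at Egr1, 2.84 at Btg2 and 2.70 at Ier2. It was within or below the range of whole lists at Gadd45a (1.74), Klf6 (1.69), Klf4 (1.61) and Gadd45g (1.26). The authors' fold divides by this background, and in each of the 10 libraries the median fold of the peaks at the 10 genes was below that of the whole list. It was 4.85 to 6.03 in Homo, 5.26 to 5.58 in Het and 5.13 to 5.92 in WT, against 6.12 to 6.94, 6 to 6.80 and 6.29 to 6.75 over all peaks.

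The height of a peak needed for a call depended on depth. A call was taken to need a −log10 p of at least 5 at the summit, which is an assumption because the caller's settings are not stated. At the library background this meant 5 tags in Homo 2, or 10.8 times the background, and 10 tags in WT 1, or 5.73 times. For each gene the median height and local background of its strongest peak in WT were scaled to each library. In Homo 2 the scaled height reached a call for 6 of the 10 genes, and 4 of the 8 genes without a peak there (Egr1, Klf4, Gadd45b and Gadd45g) fell below it. In the other 9 libraries it reached a call for all 10 genes. The genes without a call there numbered 3 in Homo 1, 7 in Het 3, 4 each in Het 1 and Het 2, 2 in WT 1 and 1 in WT 4. The scaled WT height thus did not predict a call even within WT, where Ier2 in WT 1 was scaled to 30.8 tags against 16 needed and had no peak. The margin was also small in places, as for Klf4 at 7.77 tags against 7 needed in Het 2. The WT heights come from called peaks only, and whether depth accounts for the missing calls was not tested.

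**Figure D4:**
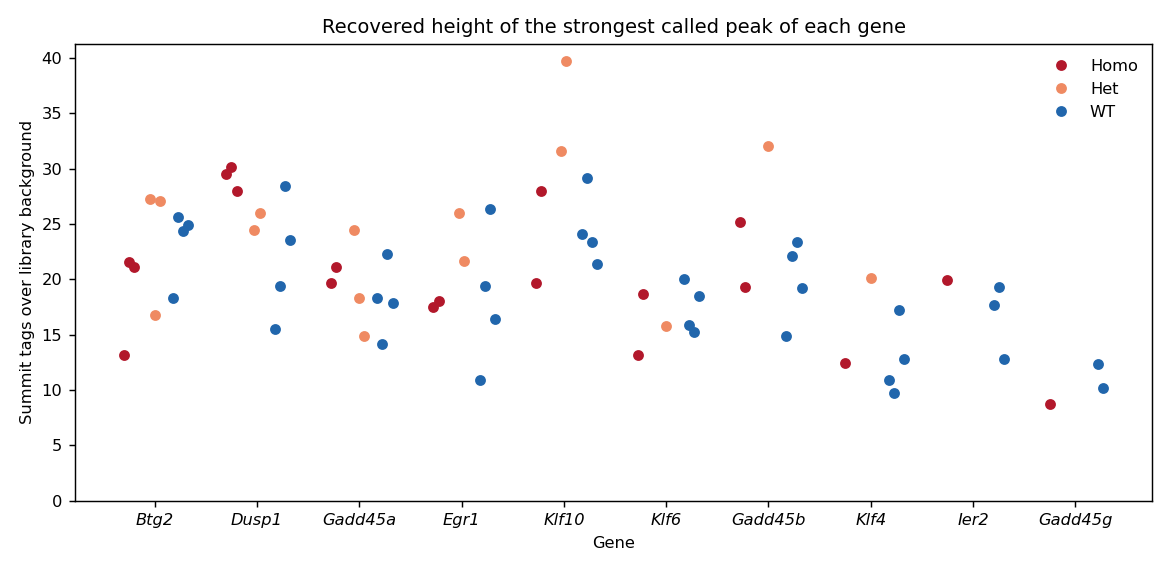
Recovered tags at the summit of the strongest called peak, divided by the library background (vertical axis, no unit), for each gene, with Homo, Het and WT libraries from left to right within a gene. Libraries with no call have no point. At Btg2, the gene with a point for every library, Homo libraries lie between 13.1 and 21.5, Het between 16.8 and 27.3 and WT between 18.3 and 25.6.

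Other genes of the same responses were looked at in 8 lists. Of their 93 genes, 82 had a peak within 10 kb in at least 1 library, 10 in all libraries and 11 in none, and the median was 6 libraries, against 7.5 for the 10 genes above and 2 for all protein-coding genes. The 10 were Jun and Jund of AP-1, Klf1, Klf3, Btg1, Nfkbia (the inhibitor of NF-kB), Trib1, the cell cycle inhibitor Cdkn1b, Ccng1 and the stress kinase Mapk14. The 11 with none included Egr4, Nab2, Klf8, the matrix genes Ccn1 and Ccn2, and the cell cycle inhibitors Cdkn2a and Cdkn2b. The 8 AP-1 genes with a peak numbered 2 to 7 per library in Homo, 3 to 6 in Het and 5 to 8 in WT. Of 8 EGR and NR4A genes it was 1 to 6, 1 to 3 and 4 to 6, and of the 14 other Klf genes 3 to 11, 5 to 8 and 9 to 11, in Homo, Het and WT in that order. The 4 other BTG and TOB genes had 1 to 4, 2 to 3 and 3 to 4. The 9 other dual specificity phosphatases, which also act on MAP kinases, had 0 to 7, 0 to 4 and 5 to 6. The 24 other immediate early genes had 2 to 20, 10 to 17 and 18 to 21, the 12 growth arrest genes 2 to 7, 5 to 7 and 7 to 9, and the 14 upstream kinases and factors 2 to 12, 4 to 9 and 10 to 12. In each of the 8 lists the highest Homo library was at or above the lowest WT library, so Homo and WT overlapped.

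Of these genes, 4 had a peak in every WT and in no Het library. Fosb, Egr2, Nr4a2 (a nuclear receptor) and Map2k1 (the kinase MEK1) had a peak in 0 of 3 Het and 4 of 4 WT libraries, and each had one in 1 or 2 Homo libraries. They were 4 of the 93 listed genes, or 4.30%, a base that includes the 11 with no peak. Of all 21631 protein-coding genes, 552 had that pattern. These were 4.74% of the 11639 genes with a peak in a Het or WT library, a narrower base than that of the 4.30%. For Homo against WT and for Homo against Het 0 of the 93 were called. Within the families, Dusp10 was called in 8 libraries and Dusp9 in 1, and Nr4a1, an immediate early nuclear receptor, in 9. Srf and Creb1 were picked for their known role after the values were seen. Srf was called in 1 of 3 Homo, 2 of 3 Het and 3 of 4 WT libraries, and Creb1 in 3 of 3, 2 of 3 and 4 of 4.

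The genes whose pattern was most like the 10 were named by the Pearson correlation of the rank percentile of their strongest peak, 0 where there was none, with the mean of the 10 genes over the 10 libraries. The first were Aldh6a1 and Lin52, which share a peak (r = 0.968), Mafa and Zc3h3, which share another (r = 0.957), and Ppa1 (r = 0.955). Each had 0 in Homo 2 and Het 3. The mean over the 10 genes was 34.9, 3.60 and 58.6 in Homo 1 to 3, 28.5, 25.6 and 15.3 in Het 1 to 3, and 46.6, 41.5, 56.0 and 49.0 in WT 1 to 4. The libraries share their depth across all genes, so these values are a description.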

How the data were processed

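ATAC-seq was done on 10 libraries, 3 Homo, 3 Het and 4 WT, grouped by their titles. The authors deposited 1 narrowPeak list per library. Bowtie2, MACS2, deepTools and mm10 are named in the submitters' processing notes, and versions, settings, read filters and the transposase shift are not stated in the labels or file headers used. The deposited score repeats the −log10 p, multiplied by 10 and truncated. The deposited fold is a ratio of summit pileup over local background, and the deposited −log10 p and −log10 q come from the same pileup. The smallest deposited −log10 p per list lay between 5.003 and 5.63. These values were used to describe and rank peaks within a list only.

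Autosomes and X were used. Peaks were assigned to a gene when they overlapped it or the 10 kb on either side by at least 1 bp, with gene spans from the RefSeq table for GRCm38.p6, which has no exons or UTRs. Strand came from the promoter table. Rank percentile is that of −log10 p within the list. A whole-number summit pileup and background that give the deposited fold and −log10 p within 0.001 were found for about 99.9% of the rows of each list. Depth was read as the lowest background value recurring in 10 or more rows. It was not checked against read totals. Overlapping or touching peaks were merged into 12266 regions, tested by Fisher's exact test with Benjamini-Hochberg adjustment, in Python 3.11.15 with scipy 1.17.1. The code was tested on simulated data.

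The genes and lists were chosen with earlier results of these data known. All 10 genes are named, with the 5 genes of most similar pattern, the listed genes called between groups and up to 4 genes per list called in most or fewest libraries. Of 95 listed related genes, 2 are older symbols of others, which left 93. Alternatives were windows of 1 and 2.5 kb, summit position, −log10 p of at least 10, lists of 1748 peaks, lists thinned to equal depth in 1 seeded draw, and leaving out each library.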

Additional observations from a re-analysis of the deposited data

Results flagged for a closer look

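The rank percentile of the Gadd45a peak in WT 2 was 48.0, far below the 83.5 to 87.0 of the other 3 WT libraries. The gap to the nearest of them is large for a group of 4. The fold of the same peak, 7.20, was not set apart in this way from the 7.77 to 8.39 of the other 3. Of 18 sets of 4 WT values checked, this was the 1 that stood out, and chance alone sets apart about 1 set in 20.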

How the results depend on the processing

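Windows of 1 and 2.5 kb, the summit in place of any overlap, and a −log10 p of at least 10 were compared with the main setting. Each changed the group differences, in genes with a peak and in peaks, by less than the SD between replicates. That SD is the root of the mean variance of both groups compared. With a −log10 p of at least 10, Homo minus WT was -4.25 genes instead of -2.92, and Het minus WT was -5.58 instead of -4.25. In peaks they were -4.92 and -6.25, instead of -5.08 for both. With a −log10 p of at least 10, Klf6 was called in every WT and no Het library, 1 gene instead of 0. So were 765 of the 21631 protein-coding genes. With lists of equal length, the Het minus WT difference in genes with a peak was -1.17 instead of -4.25, and Homo minus WT was -0.167 instead of -2.92. In peaks at the 10 genes, Homo minus WT was then -0.167 and Het minus WT was -1.17, instead of -5.08 for both. At that length Dusp1 was called in every Homo and no Het library, 1 gene instead of 0, as were 37 of all protein-coding genes. At equal depth Het minus WT was -1.67 genes and -0.833 peaks, Homo minus WT was -1.67 genes and -1.83 peaks, and Homo minus Het was 0 genes instead of 1.33. Leaving out 1 library gave 0 to 1 genes called between Homo and WT (Klf4 without Homo 3), and 0 to 2 between Het and WT. These were Klf4 and Klf6 without Het 1, Gadd45b without Het 2 and Ier2 without WT 1. Of all protein-coding genes, 1547, 981 and 601 were then called in every WT and no Het library. Over all genes, those called in every WT and no Homo library ranged from 19 to 155 over the alternative settings and from 30 to 2676 with 1 library left out, against 27. For WT and no Het the ranges were 49 to 765 and 601 to 1547, against 552, for Homo and no Het 30 to 47 and 50 to 338, against 47, and for Het and no Homo 2 to 84 and 5 to 399, against 5. For Homo and no WT they were 0 to 15 and 1 to 19, and for Het and no WT 1 to 53 and 1 to 10, against 1 each. With the replicate number as a block, an exact sign test over the 3 shared numbers gave 0 regions in each comparison, where the smallest possible p is 0.25. Deviations of same-numbered libraries from their group means correlated between -0.141 and 0.0139. Peak presence also follows list length, so these correlations cannot decide whether same-numbered libraries share more than a number. Region tests gave 0 calls with stricter peaks and by summit. For Homo against Het no setting could give any, since the smallest possible p is 0.1. For Homo and Het against WT, a call would need most regions to reach the smallest possible p. Without 1 library the tests cannot give any call, since the smallest possible p is then 0.0667 or 0.1. These counts of 0 are therefore no check on the main setting. The height needed for a call was greatest in Homo 2, at 10.8 times the library background, and a missing peak there does not show closed chromatin. The scaled WT height reached a call for 4 of the 8 genes without a peak there, and whether depth accounts for them was not tested.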
